A study of Mus musculus with 10 samples.

Results

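Human chromosome 21 (Hsa21) has its homologous genes on 3 mouse chromosomes, and the 44 genes described here are those on mouse chromosomes 17 and 10 (Mmu17 and Mmu10). They were taken as a given list of homologues, with no filter on measured values, although earlier results of these data were known. All 44 were measured among the 19939 genes of the array that could be tested. On Mmu17 there are 15 of them, between positions 30954648 and 32062865 of the GRCm38.p6 assembly, a span of 1.11 Mb that runs from Umodl1 to Rrp1b. On Mmu10 there are 29, between positions 76207226 and 78427622, a span of 2.22 Mb that runs from Prmt2 to Cstb. The list leaves out other genes of both spans, which hold 19 and 43 measured coding genes.

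The arrays were Affymetrix Mouse Gene 1.0 ST, 1 per mouse, hybridised with cDNA made from total RNA of the whole hippocampus, right and left sides together. The mice were males of 16 weeks, 5 of the Dp3Yah line and 5 control littermates, kept under specific-pathogen-free conditions. The labels give a C57BL/6N background, and the study's methods name C57BL/6J. Dp3Yah mice carry a duplication on Mmu16 which gives 3 copies of the genes from Hspa13 to Gabpa and leaves App at 2 complete copies, and every cell of the animal carries it. No gene of Mmu10 or Mmu17 is duplicated, so that the 44 genes had 2 copies in trisomic mice and controls alike. The comparison asks whether a Mmu16 duplication went with another level of Hsa21 homologues that it does not contain. In whole tissue, fewer cells of a type and less RNA per cell cannot be told apart.

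In Down syndrome, the homologues of these 44 genes are present in an additional copy, whereas mouse models with a duplication on Mmu16 leave them at their normal number. The genes sit at the distal end of Hsa21 in human. They encode proteins of many kinds, among them chains of collagen VI and XVIII, an RNA editing enzyme of neurons, a splicing factor, nucleolar ribosome assembly factors, enzymes of sterol and sugar metabolism, a centrosome scaffold, and regulators of immune tolerance. In brain, ADARB1 is known for editing glutamate receptor transcripts, PCNT for anchoring microtubule nucleation, and CSTB for restraining cathepsins, with its loss causing a progressive myoclonus epilepsy.

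The triplicated genes checked the labels. On the log2 scale, Hspa13, which encodes a chaperone of the Hsp70 family, was at 8.99 ± 0.105 in Dp3Yah and 8.39 ± 0.137 in controls (SD, n = 5 each). Its log2 change was 0.60 (SE 0.069, limma adjusted p = 0.0122). The log2 changes of Mrpl39, a mitochondrial ribosomal protein gene, and Ncam2, a neural adhesion molecule gene, were 0.48 and 0.58 (limma adjusted p = 0.00336 and 0.0122). No mouse of either group overlapped with the other group in these 3 genes. Marker levels were set beside the tissue label. Above the median of all genes lay 12 of 12 dentate granule neuron, 11 of 12 CA1 and CA3 pyramidal neuron and 9 of 9 general neuron markers. So did 8 of 9 neocortex neuron, 10 of 10 astrocyte, 9 of 9 oligodendrocyte and 11 of 11 microglia markers. A level above that median thus does not set hippocampus apart from neocortex. Choroid plexus markers split the arrays, with a mean log2 value of 6.90 to 7.69 in 3 Dp3Yah and 2 control mice and of 5.85 to 5.99 in the other 5. Dp3Yah replicate 2 stood apart in the mean of the neocortex neuron markers, at 7.44 against 7.82 to 8.31 in the other 9 mice, and it held the lowest value of all 10 mice in 23.8% of all genes. Of the 12 dentate markers 10 were on the lower side in Dp3Yah, where 53.2% of all genes had a log2 change below 0. At an unadjusted p under 0.05, 4 were lower, beside 2.59% of all genes, and none was called. Their mean log2 value was 7.79 to 8.10 in Dp3Yah and 7.94 to 8.18 in control mice. The part of these cells in the values below was not tested. Log2 changes that Dp3Yah replicate 2 moved by over 1.5 times are given with and without that mouse where the gene is described or in the account of that mouse.

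None of the 44 Hsa21 homologues with 2 copies was called in Dp3Yah hippocampi at an adjusted p under 0.05 (limma, Benjamini-Hochberg over all 19939 genes). Over all genes 0.015% were called, which is 3 genes, each of them triplicated. The lowest adjusted p among the 44 was 0.922. At an unadjusted p under 0.05, none was higher and 2 were lower, Tspear and Tmprss3, where 2.49% of all genes were higher and 2.59% lower. In the rank test of the study (FCROS, which orders fold changes over all pairs of mice), none was higher and 2 were lower, Tspear and Aire, beside 2.5% and 2.2% of all genes (4.7% together). In none of the 44 did the 5 Dp3Yah mice lie wholly above or wholly below the 5 controls, while this was so above for 0.522% and below for 0.391% of all genes. The share of all genes with an unadjusted p under 0.05 in either direction was 5.08%, so that 2 of 44 is close to the background.

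The size of a change in array signal that these mice leave possible was small. The log2 changes ran from -0.14 to 0.12, with a median of -0.02, where the median of all genes was -0.005. Of the 44 genes, 14 were on the higher side and 30 on the lower side, and 53.2% of all genes had a log2 change below 0. The 95% intervals of all 44 excluded a 1.5-fold change either way, as did 99.6% of intervals over all genes. That is the ratio of 3 copies to 2, but the intervals of 8 of 13 triplicated genes (61.5%) excluded it too. So did those of all 4 triplicated genes at or below the median of all genes, with a median log2 change of 0.12. Excluding a 1.5-fold change thus does not by itself exclude a change as small as 3 copies gave in those genes. For 38 of the 44 (86.4%) the interval lay within a 1.2-fold change either way, beside 88.3% of all genes. The other 6 were Tmprss3, Pde9a, Pcnt, Lss, Adarb1 and Aire. The widest bounds on the log2 scale were -0.32, for Adarb1, and 0.28, for Pde9a and Lss. The median SD between mice of a group was 0.0867 for the 44 genes and 0.0874 for all genes, so the list was measured about as precisely as the rest of the array.

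**Figure D1:**
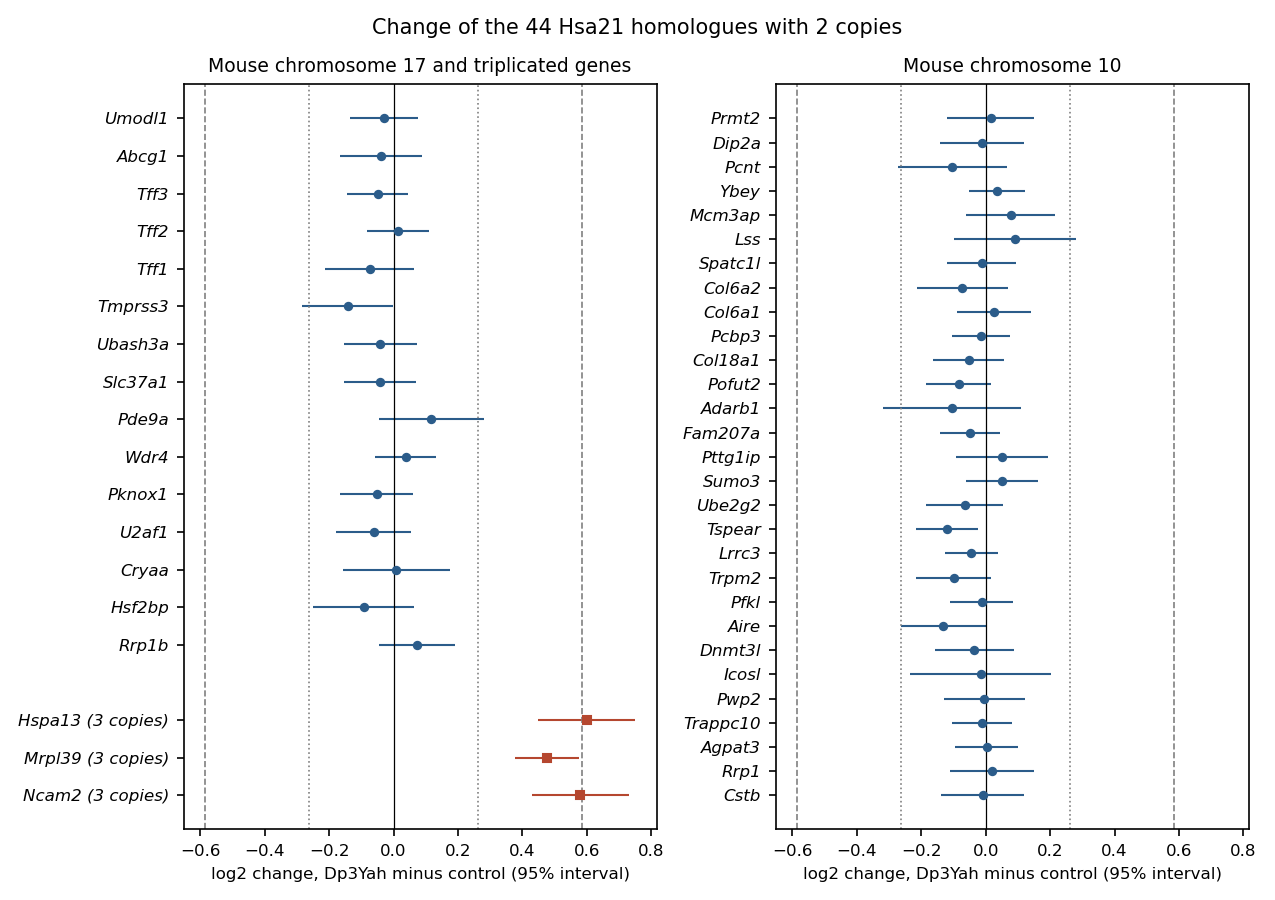
Log2 change (Dp3Yah minus control, points) with its 95% interval (bars) for the 15 genes on Mmu17 and the 29 on Mmu10 in chromosome order, with 3 triplicated genes as squares for scale, and with dotted and dashed lines at a 1.2-fold and a 1.5-fold change. All 44 intervals stop short of the dashed lines, whereas the squares lie at 0.48 to 0.60. The squares are the 3 called genes, and all 13 triplicated genes ran from 0.02 to 0.60 with a median of 0.38.

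Values on both chromosomes were close to each other, and the difference between them was not tested. The median log2 change was -0.04 over the 15 genes on Mmu17 and -0.01 over the 29 on Mmu10. Of the genes on Mmu17, 5 were on the higher and 10 on the lower side, and of those on Mmu10, 9 and 20. The 24 genes with a mean above the median of all genes had a median log2 change of -0.01 and the 20 dimmer ones of -0.04, beside 0.01 and -0.01 for all genes split in the same way. Only 3 of the 15 genes on Mmu17 belonged to the brighter class (Abcg1, Pde9a and U2af1), and 21 of the 29 on Mmu10. Tspear, Tmprss3 and Aire, which the tests above pointed to, were all among the dimmer ones.

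The homologues that Dp3Yah mice do carry in 3 copies behaved otherwise as a list, most clearly those above the median of all genes. All 13 measured coding genes of the triplicated interval were on the higher side, with a median log2 change of 0.38. Of these, 11 had an unadjusted p under 0.05, 3 were called, and in 8 the groups did not overlap. The 4 at or below the median of all genes had a median log2 change of 0.12. None of these 4 was called, their groups overlapped, and Chodl and Tmprss15 among them were at 0.03 and 0.02. The 115 measured genes of Mmu16 from App to Zbtb21, which also have 2 copies in both groups, had a median of -0.02. None of them was called, and 87.0% had an interval within a 1.2-fold change, beside 88.3% of all genes. At an unadjusted p under 0.05, 3 were higher and 4 lower, where 2.49% of all genes were higher and 2.59% lower. In 2 of them the Dp3Yah mice lay wholly above the controls and in 1 wholly below, beside 0.522% and 0.391% of all genes. The 2-copy homologues on Mmu10 and Mmu17 thus lay beside the 2-copy coding genes on Mmu16, which were taken by position and not from a list of homologues. The difference between these lists was not tested.

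**Figure D2:**
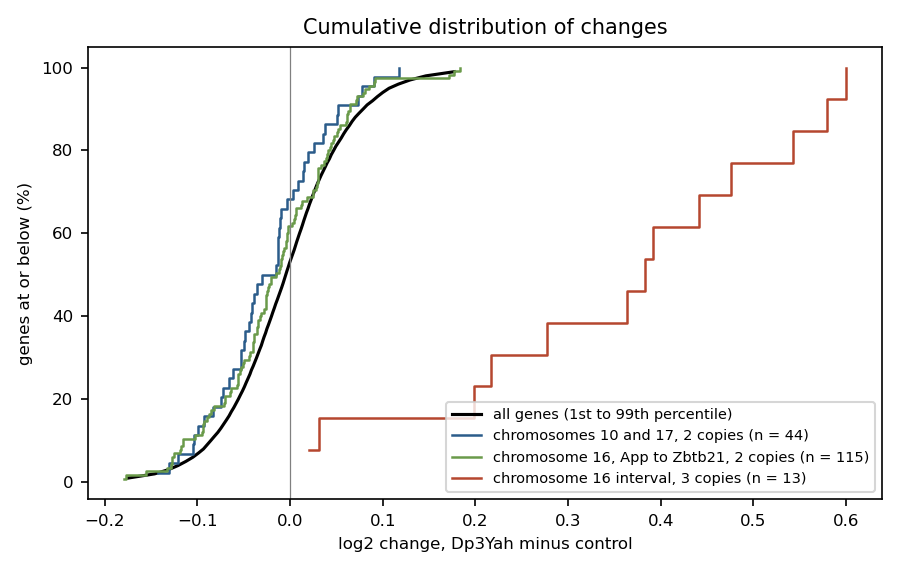
Cumulative share of genes (%) at or below a log2 change (Dp3Yah minus control) for all genes (black, 1st to 99th percentile), the 44 genes on Mmu10 and Mmu17, the 115 two-copy genes of Mmu16 and the 13 triplicated genes. The curves of the lists with 2 copies have medians of -0.02, beside -0.005 for all genes. At 0 they lie to the left of the curve of all genes, with 30 of 44 and 71 of 115 genes below 0, beside 53.2% of all genes. The triplicated genes lie to the right of it with a median of 0.38.

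Among the 44 genes, Tspear had the smallest p. It encodes a protein with repeats of the thrombospondin and EAR type that is known from hearing and from tooth and hair development. Its log2 values were 4.89, 4.96, 4.94, 5.00 and 5.06 in Dp3Yah replicates 1 to 5 and 5.04, 5.03, 5.09, 5.18 and 5.11 in control replicates 1 to 5. Of the 5 Dp3Yah mice, 4 lay below every control, as at least 4 of 5 did in 2.49% of all genes, and replicate 5 lay inside the range of the controls. The log2 change was -0.12 (SE 0.045, unadjusted p = 0.0185, limma adjusted p = 0.922). The gene spans 7 other measured genes, and whether the probes of Tspear pick up signal from them was not tested.

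Tmprss3, on Mmu17, encodes a transmembrane serine protease needed for hearing. Its log2 values were 4.73, 4.79, 4.67, 4.94 and 4.86 in Dp3Yah mice and 5.13, 4.84, 4.97, 4.90 and 4.87 in controls. Of the Dp3Yah mice, 3 lay below every control and the others lay within their range, with control replicate 1 far above the rest. The log2 change was -0.14 (SE 0.065, unadjusted p = 0.0472, limma adjusted p = 0.922), and without control replicate 1 Tspear alone kept an unadjusted p under 0.05. Cstb, the other member of the protease group and an inhibitor of cysteine cathepsins, had a log2 change of -0.01.

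The immune regulators on the list had low signals or a wide spread in hippocampus. Aire, the transcriptional regulator by which thymus epithelium displays tissue antigens, was at 5.71, 5.82, 5.75, 5.64 and 5.85 in Dp3Yah mice and at 5.96, 5.73, 5.80, 5.98 and 5.97 in controls. The groups overlapped, since control replicates 2 and 3 were at the level of the Dp3Yah mice. Its log2 change was -0.13 (SE 0.061, unadjusted p = 0.0523, limma adjusted p = 0.922). Icosl, the ligand of the T cell costimulator ICOS, was among the members with the largest spread, at 6.48, 6.35, 6.75, 6.20 and 6.42 in Dp3Yah and 6.54, 6.72, 6.31, 6.32 and 6.38 in control mice. Its high values were in Dp3Yah replicate 3 and control replicate 2, and its log2 change was -0.02. Ubash3a, which damps T cell receptor signalling, had a log2 change of -0.04. Of 11 microglia markers, 11 were on the higher side, where 53.2% of all genes had a log2 change below 0. At an unadjusted p under 0.05, 4 were higher, beside 2.49% of all genes, and none was called. The mean log2 value of these markers was 7.87 to 8.07 in Dp3Yah and 7.77 to 7.88 in control mice, so the groups overlapped. Their part in the values of the immune regulators was not tested.

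In the group of signalling enzymes, channels and sugar metabolism, 2 members were among those with the smallest p. Trpm2, a calcium-permeable channel opened by ADP-ribose under oxidative stress, was at 6.37, 6.19, 6.45, 6.42 and 6.39 in Dp3Yah mice and 6.49, 6.39, 6.44, 6.44 and 6.56 in controls. Dp3Yah replicate 2 was the lowest mouse, replicate 1 lay just below the lowest control, and the other 3 lay within the range of the controls. This gave a log2 change of -0.10 (SE 0.054, unadjusted p = 0.089, limma adjusted p = 0.922) and -0.06 without that mouse.

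Pde9a, which breaks down cGMP with high affinity in neurons, had the highest log2 change of the 44 genes. Its values were 7.55, 7.31, 7.49, 7.39 and 7.74 in Dp3Yah mice and 7.33, 7.43, 7.27, 7.35 and 7.51 in controls. Replicates 1 and 5 of Dp3Yah were above every control and replicate 2 was near the low end of them. A log2 change of 0.12 resulted (SE 0.075, unadjusted p = 0.143, limma adjusted p = 0.926) with all mice, and leaving out 1 mouse at a time gave 0.06 (without Dp3Yah replicate 5) to 0.16 (without Dp3Yah replicate 2). Pfkl, the liver type of phosphofructokinase, and Slc37a1, a glucose 6-phosphate exchanger, had log2 changes of -0.01 and -0.04.

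**Figure D3:**
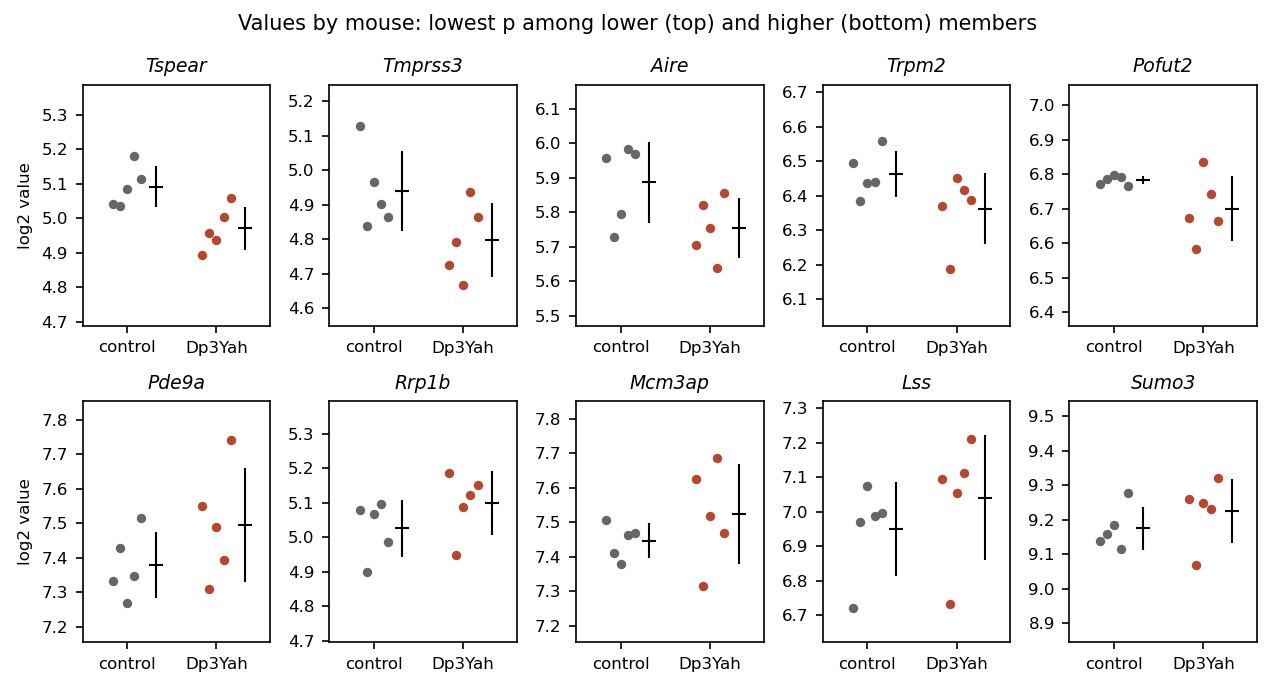
Log2 value of each mouse (points, control grey and Dp3Yah red) with the mean and SD of each group (bars) for the 5 genes with the smallest p on the lower side (top) and on the higher side (bottom), each panel with its own log2 axis of the same height. The groups overlap in all 10 genes, and Dp3Yah replicate 2, the second point of its group, is the lowest of its group in the bottom row.

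The extracellular matrix group held 3 collagen genes and a glycosyltransferase. Pofut2, which adds fucose to thrombospondin repeats of secreted proteins, was at 6.67, 6.58, 6.84, 6.74 and 6.66 in Dp3Yah mice and at 6.77, 6.79, 6.80, 6.79 and 6.77 in controls. The controls lay close together (SD 0.013), 4 Dp3Yah mice were below all of them and replicate 3 was above all of them. Between the groups the log2 change came to -0.08 (SE 0.047, unadjusted p = 0.0991, limma adjusted p = 0.922) and -0.05 without Dp3Yah replicate 2.

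Col6a1 and Col6a2 encode chains of collagen VI, a beaded filament of connective tissue, and Col18a1 the basement membrane collagen from which endostatin is released. Col6a1 was at 6.03, 6.02, 6.14, 5.91 and 5.92 in Dp3Yah and 5.91, 5.96, 5.97, 6.10 and 5.96 in control mice, a log2 change of 0.03. Col6a2 was at 6.16, 6.25, 6.40, 6.20 and 6.05 in Dp3Yah and 6.38, 6.23, 6.14, 6.35 and 6.33 in control mice, a log2 change of -0.07. The 2 chains of the same collagen were thus on opposite sides of 0, both well within the spread between mice. Col18a1 was at 6.15, 6.33, 6.28, 6.17 and 6.30 in Dp3Yah and 6.43, 6.25, 6.25, 6.27 and 6.29 in control mice, a log2 change of -0.05. Control replicate 1 was its highest mouse.

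Collagen RNA can come with meninges and choroid plexus, so the 3 genes were set against marker means over the 10 mice, 6 relations in all. Against 12 fibroblast markers, whose mean log2 value ran from 7.14 to 7.43 in both groups together, Pearson's r was 0.033 for Col6a1, 0.001 for Col6a2 and 0.304 for Col18a1. The permutation p for Col18a1 was 0.396, or 0.793 after Benjamini-Hochberg adjustment, and those for Col6a1 and Col6a2 were 0.928 and 0.997 (both 0.997 adjusted). Spearman's rho was 0.018, -0.018 and 0.358 in the same order, with permutation p-values of 0.972, 0.974 and 0.311 (adjusted 1.0, 1.0 and 0.933). Without the 2 mice farthest from the median of the marker mean, r was 0.038, 0.083 and 0.021, so the r of Col18a1 rested on those 2 mice. The choroid plexus means fell into 2 clusters of 5 mice each, so that no correlation pooled over them is given, and a cluster is too small for a correlation of its own. Col18a1 ran from 6.15 to 6.43 (median 6.30) in the 5 mice with the higher marker means and from 6.17 to 6.28 (median 6.25) in the other 5. The medians in the same order were 5.96 and 5.97 for Col6a1 and 6.25 and 6.23 for Col6a2, and the clusters overlapped in all 3 genes. Of 11 choroid plexus markers, 9 were on the higher side in Dp3Yah and none was called. Taken as a covariate, an alternative chosen after seeing the data, their mean left the median log2 change of the 44 genes at -0.02 and called none of them.

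**Figure D4:**
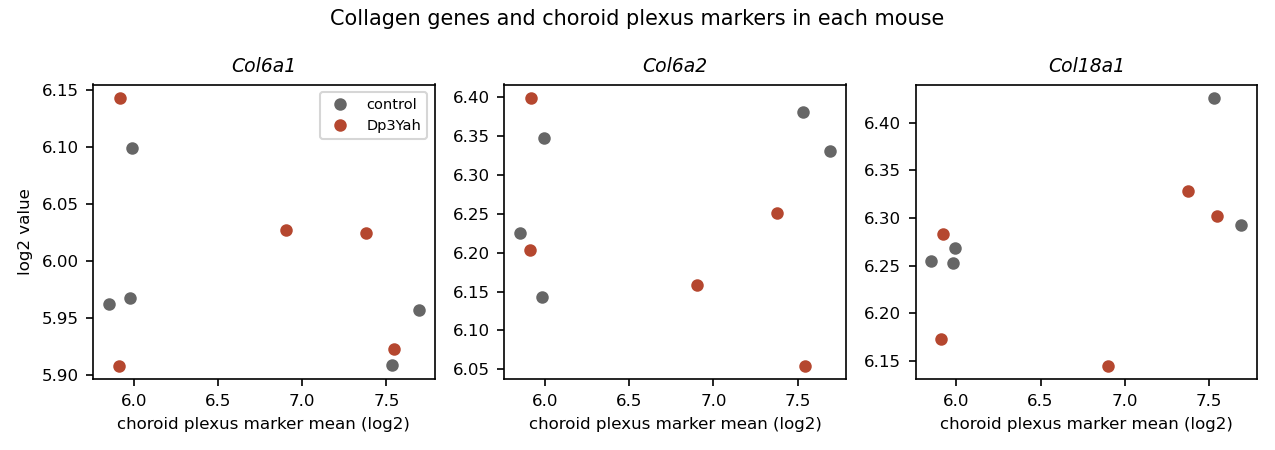
Log2 value of Col6a1, Col6a2 and Col18a1 in each mouse (control grey, Dp3Yah red) against the mean log2 value of the choroid plexus markers in the same mouse. The marker mean splits the mice into 5 between 5.85 and 5.99 and 5 between 6.90 and 7.69, with mice of both groups in each, and the highest Col18a1 value, 6.43, belongs to a control mouse with a marker mean of 7.53.

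Among genes of RNA processing, Mcm3ap, whose GANP protein takes part in mRNA export, was at 7.63, 7.32, 7.52, 7.69 and 7.47 in Dp3Yah mice and 7.51, 7.41, 7.38, 7.46 and 7.47 in controls. Dp3Yah replicates 1, 3 and 4 were above every control and replicate 2 was below every control. The log2 change was 0.08 (SE 0.063, unadjusted p = 0.244, limma adjusted p = 0.939) with all mice, and leaving out 1 mouse at a time gave 0.04 (without Dp3Yah replicate 4) to 0.13 (without Dp3Yah replicate 2). Mcm3ap overlaps Ybey, and whether its probes pick up signal of that gene was not tested. Adarb1, the editing enzyme ADAR2, was at 9.12, 8.82, 8.77, 8.92 and 9.09 in Dp3Yah mice and 9.02, 8.89, 8.82, 9.20 and 9.31 in controls. Both groups spanned most of the same range, and the log2 change of -0.10 had the lowest bound of all 44 intervals. U2af1, the subunit that reads the AG of the intron end, had 2 probe sets, with log2 changes of -0.06 and -0.05. Pcbp3, a poly(C)-binding protein gene, and Wdr4, the partner of METTL1 in tRNA methylation, had log2 changes of -0.01 and 0.04.

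Ribosome assembly was represented by 5 genes. Rrp1b, a nucleolar protein gene on Mmu17, was at 5.19, 4.95, 5.09, 5.12 and 5.15 in Dp3Yah mice and 5.08, 4.90, 5.07, 5.10 and 4.99 in controls. In 3 Dp3Yah mice it was above the highest control, and replicate 2 was low. Rrp1b thus had a log2 change of 0.07 (SE 0.054, unadjusted p = 0.2, limma adjusted p = 0.939) with all mice, and leaving out 1 mouse at a time gave 0.04 (without control replicate 2) to 0.11 (without Dp3Yah replicate 2). The related Rrp1 on Mmu10 had a log2 change of 0.02, Pwp2, a part of the small subunit processome, of 0.00, Fam207a of -0.05 and the ribonuclease gene Ybey of 0.04.

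In lipid metabolism, Lss, the lanosterol synthase of cholesterol synthesis, was at 7.10, 6.73, 7.06, 7.11 and 7.21 in Dp3Yah mice and 6.72, 6.97, 7.08, 6.99 and 7.00 in controls. Each group had 1 low mouse, Dp3Yah replicate 2 and control replicate 1, and apart from these the Dp3Yah values lay at the upper end. With all mice the log2 change of Lss was 0.09 (SE 0.087, unadjusted p = 0.314, limma adjusted p = 0.945), and leaving out 1 mouse at a time gave 0.03 (without control replicate 1) to 0.17 (without Dp3Yah replicate 2). Without Dp3Yah replicate 5 it was 0.05. Abcg1, which exports cholesterol, and Agpat3, an acyltransferase of phospholipid synthesis, had log2 changes of -0.04 and 0.00.

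Sumo3, the ubiquitin-like modifier, was at 9.26, 9.07, 9.25, 9.23 and 9.32 in Dp3Yah mice and 9.14, 9.16, 9.19, 9.12 and 9.28 in controls. Dp3Yah replicate 2 was the lowest of the 10 mice, and the other 4 lay at the upper end of the controls. The log2 change was 0.05 (SE 0.052, unadjusted p = 0.345, limma adjusted p = 0.951), and leaving out 1 mouse at a time gave 0.03 (without Dp3Yah replicate 5) to 0.09 (without Dp3Yah replicate 2). Ube2g2, a ubiquitin-conjugating enzyme of endoplasmic reticulum degradation, had a log2 change of -0.07.

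The genes of centrosome, membrane traffic and membrane proteins had log2 changes of -0.10 for Pcnt, -0.01 for Dip2a, Spatc1l and Trappc10, -0.04 for Lrrc3 and 0.05 for Pttg1ip. Pcnt, the pericentriolar scaffold, was at 6.50, 6.12, 6.53, 6.51 and 6.39 in Dp3Yah mice and 6.36, 6.48, 6.65, 6.56 and 6.51 in controls. Dp3Yah replicate 2 was the lowest of all 10 mice by a wide margin, and without it the log2 change of Pcnt was -0.03. For transcription and chromatin, the log2 changes were -0.05 for the homeodomain gene Pknox1, 0.02 for the arginine methyltransferase gene Prmt2 and -0.04 for Dnmt3l, the cofactor of germline DNA methylation, which overlaps Aire. Hsf2bp, a meiotic recombination factor, had a log2 change of -0.09. The trefoil peptide genes Tff1, Tff2 and Tff3, which protect mucosa, had log2 changes of -0.07, 0.01 and -0.05, the uromodulin-like gene Umodl1 of -0.03 and the lens crystallin gene Cryaa of 0.01. Cryaa was at 5.92 in Dp3Yah replicate 2 and at 5.49 to 5.68 in the other 9 mice, and without that mouse its log2 change turned to -0.07.

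Dp3Yah replicate 2 bore on the values on the higher side. It was the lowest of the 10 mice in 11 of the 44 genes (and in 23.8% of all genes), namely Slc37a1, U2af1, Hsf2bp, Dip2a, Pcnt, Mcm3ap, Pofut2, Sumo3, Ube2g2, Trpm2 and Rrp1. The mean log2 value over the 44 genes was 6.87 in this mouse and 6.92 to 6.96 in the other 9. Over all genes too, this mouse had the lowest median deviation from the gene's mean over the 10 mice, -0.029, beside -0.052 over the 44. Without it, 6 of the 44 had an unadjusted p under 0.05, with Pde9a, Rrp1b, Mcm3ap and Lss higher and Tspear and Aire lower. In the same setting 3.82% of all genes were higher and 2.37% lower at that p. The lowest limma adjusted p was then 0.8, and again none was called. Of the 44 genes, 15 were then on the higher and 29 on the lower side, and 5 changed sign: Cryaa, Prmt2, Dip2a, Icosl and Pwp2. Without that mouse the log2 changes of the first 4 were -0.07, -0.01, 0.01 and 0.01, and that of Pwp2 was 0.005. Other genes kept their sign but moved by over 1.5 times, among them Rrp1 to 0.08, Agpat3 to 0.02, Hsf2bp to -0.05, Ube2g2, U2af1 and Pcnt to -0.03, Dnmt3l to -0.06, and Pfkl and Abcg1 to -0.02. Slc37a1, Tff2, Pcbp3, Trappc10 and Cstb moved by as much and were then all within 0.01 of 0. With any 1 mouse left out in turn, 28 of the 44 kept their sign throughout and 16 did not. Without Dp3Yah replicate 1, none had an unadjusted p under 0.05, and without control replicate 1 or 4 only Tspear had one. The part of the neocortex neuron markers, low in Dp3Yah replicate 2, in these values was not tested.

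**Figure D5:**
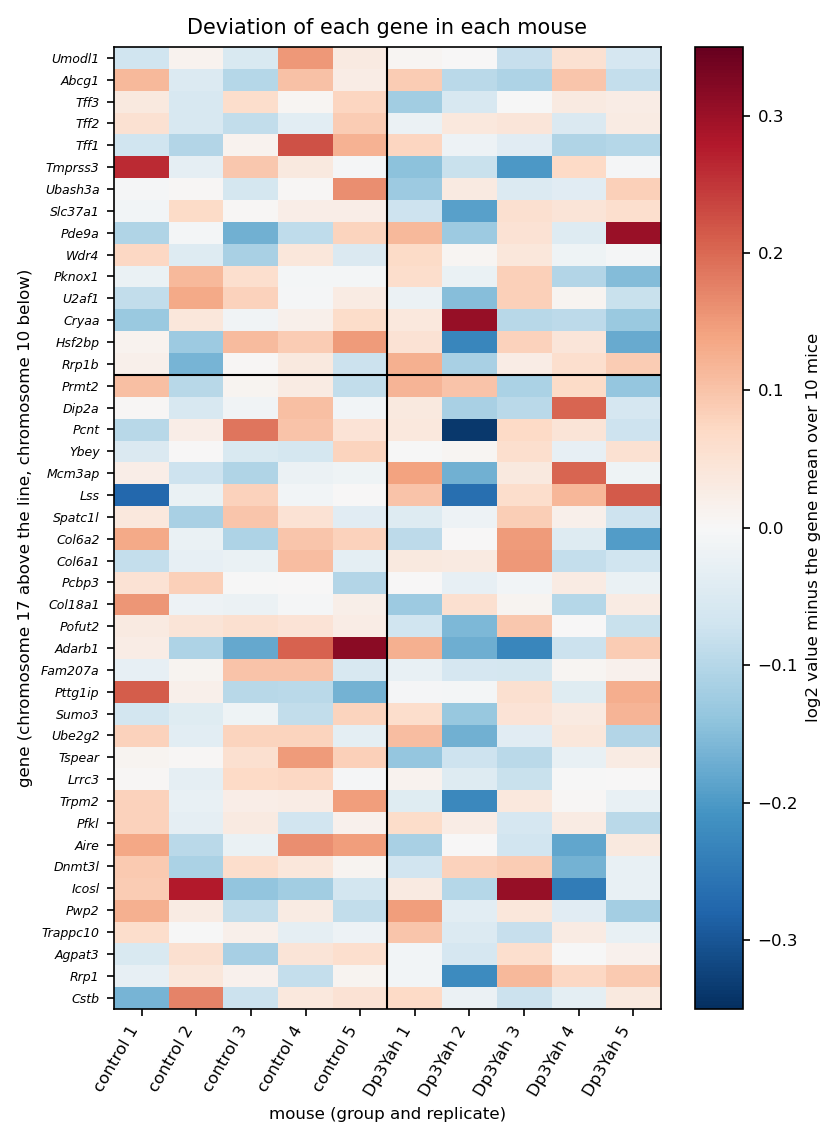
Deviation of each mouse's log2 value from the mean of the gene over the 10 mice (colour scale, red above and blue below) for the genes of Mmu17 above the horizontal line and of Mmu10 beneath it, with controls left and Dp3Yah right of the vertical line. Colours do not part at the vertical line, and the column of Dp3Yah replicate 2 holds the lowest value of 11 genes.

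Gabpa, at the end of the triplicated interval, encodes the DNA-binding subunit of an ETS family factor that binds a GGAA core near many start sites, which is why promoters with its longer motif are shown. Its log2 values were 8.03, 7.82, 7.83, 8.03 and 7.84 in Dp3Yah mice and 7.62, 7.31, 7.48, 7.54 and 7.40 in controls. Every Dp3Yah mouse was above every control, and the log2 change was 0.44 (SE 0.067, limma adjusted p = 0.0785). RefSeq promoter windows of 300 bases, 250 before and 50 from a start site on, were at hand for 33 of the 44 genes, 7 of them with several windows (42 windows in all), and not for Tff1, Tff2, Tff3, Pknox1, Pcbp3, Pde9a, Cstb, Abcg1, Ybey, Tspear and Ube2g2. The letters CCGGAAGT, on either strand, stood in a window of 5 of the 33 genes (15.2%), against 4.31% of all 27025 genes with a window and 6.01% of the 15614 measured ones. The windows of these 5 genes that hold it, all on Mmu10, follow 5′ to 3′ on the strand of the gene, in GRCm38.p6 coordinates, with the motif (or ACTTCCGG, its reverse complement) in capitals.
Fam207a (chr10:77515764-77516063, minus strand): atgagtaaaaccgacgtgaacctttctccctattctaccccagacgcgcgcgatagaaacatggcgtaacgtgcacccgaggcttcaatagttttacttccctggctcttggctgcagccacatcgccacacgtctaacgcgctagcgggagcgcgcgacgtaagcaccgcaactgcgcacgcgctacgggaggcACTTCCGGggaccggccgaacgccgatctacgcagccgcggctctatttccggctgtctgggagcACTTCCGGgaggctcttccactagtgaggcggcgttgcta
Mcm3ap (chr10:76468652-76468951, plus strand): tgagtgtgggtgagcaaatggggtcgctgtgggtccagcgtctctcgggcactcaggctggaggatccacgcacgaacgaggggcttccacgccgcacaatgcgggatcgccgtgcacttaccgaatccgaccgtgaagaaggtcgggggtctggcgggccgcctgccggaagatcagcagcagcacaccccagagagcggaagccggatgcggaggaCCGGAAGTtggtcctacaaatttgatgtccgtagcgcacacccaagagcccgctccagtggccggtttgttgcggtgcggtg
Pofut2 (chr10:77259050-77259349, plus strand): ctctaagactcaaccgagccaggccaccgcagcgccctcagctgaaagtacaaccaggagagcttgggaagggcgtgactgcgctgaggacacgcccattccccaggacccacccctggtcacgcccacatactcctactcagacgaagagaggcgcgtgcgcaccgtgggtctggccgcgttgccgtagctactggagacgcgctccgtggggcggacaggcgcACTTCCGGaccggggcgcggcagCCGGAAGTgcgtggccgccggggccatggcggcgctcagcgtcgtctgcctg
Pwp2 (chr10:78185100-78185399, minus strand): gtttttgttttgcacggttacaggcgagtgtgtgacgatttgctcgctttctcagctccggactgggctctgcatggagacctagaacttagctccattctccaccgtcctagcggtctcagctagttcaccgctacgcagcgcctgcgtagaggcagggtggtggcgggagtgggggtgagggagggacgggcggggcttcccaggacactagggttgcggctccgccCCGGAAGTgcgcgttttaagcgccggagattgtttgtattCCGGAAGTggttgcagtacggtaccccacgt
Trappc10 (chr10:78244596-78244895, minus strand): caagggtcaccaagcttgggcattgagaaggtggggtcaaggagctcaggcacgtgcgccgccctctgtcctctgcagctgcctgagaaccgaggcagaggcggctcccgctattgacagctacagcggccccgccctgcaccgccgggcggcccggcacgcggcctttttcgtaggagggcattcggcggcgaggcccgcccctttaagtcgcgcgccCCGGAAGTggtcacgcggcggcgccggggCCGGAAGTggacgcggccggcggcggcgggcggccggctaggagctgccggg

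The start site of the window was the outer end of the gene's RefSeq span in Mcm3ap and Trappc10, and lay inside that span by 22 bases in Pwp2, 219 in Pofut2 and 1111 in Fam207a. Counted from the start site of the window, the first base of the motif was at -32 in Mcm3ap, at -25 and -2 in Pofut2, at -31 and -2 in Trappc10, at -55 and 11 in Fam207a and at -21 and 20 in Pwp2. The log2 changes of these 5 genes had a median of -0.01 and ran from -0.08 for Pofut2 to 0.08 for Mcm3ap. The 28 genes whose windows lacked the letters had a median of -0.02. Genes with the motif thus lay on both sides of 0, and none of them was called. The shorter CCGGAAG, which overlaps it, stood in a window of 6 of 33 genes (18.2%, against 9.93% of all genes and 13.6% of measured genes), with Prmt2 added.

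Other motifs searched on both strands were held by a smaller share of the members than of all genes. TATAAA stood in windows of 3 of 33 genes (9.09%, against 15.7% of all and 13.6% of measured genes), Prmt2, Trpm2 and Aire. The E box CACGTG stood in 2 (6.06%, against 8.09% and 9.5%), Dnmt3l and Trappc10. The cAMP response element TGACGTCA and the sterol element TCACCCCAC stood in none, against 2.03% and 0.614% of all genes. A match is a string of letters and was not measured as a site in these mice.

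Partners of the 44 genes in their pathways were followed in 13 lists, with 207 of 220 entries matched to a measured gene. These include Pigq, which was matched in error to the glycolysis entry Gpi1. None of the 207 was called. At an unadjusted p under 0.05, 4 were higher and 3 lower, 3.38% together beside 5.08% of all genes, and the median log2 change was 0.00. The median log2 changes of single lists ran from -0.04 for TRPM channels to 0.04 for SUMO conjugation and for cGMP turnover.

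Around the collagens, 1 of 21 matrix genes was higher and 1 lower at an unadjusted p under 0.05. Lamb2, a laminin chain of basement membranes, had a log2 change of 0.10 with 5 of 5 Dp3Yah mice above every control (unadjusted p = 0.0418, limma adjusted p = 0.922). Col4a1, the basement membrane collagen, was at -0.13 (unadjusted p = 0.0248, limma adjusted p = 0.922) and Col5a1 at -0.08. Around Adarb1, none of 14 editing genes and edited transcripts had an unadjusted p under 0.05, with log2 changes of -0.12 for Adar, 0.07 for Gria3 and -0.06 for Grik1. Around U2af1, none of 11 genes of branch point and splice site recognition had one, with log2 changes of 0.07 for Sf3a3, -0.07 for Sf1 and -0.09 for Sf3a2.

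None of 32 nucleolar assembly genes, 22 genes of sterol synthesis and efflux and 13 of SUMO conjugation had an unadjusted p under 0.05. The log2 changes nearest to it were 0.11, 0.09 and -0.10 for Utp20, Wdr43 and Rrp12, 0.10, -0.10 and 0.11 for Mvk, Mvd and Nsdhl, and 0.09, 0.10 and 0.09 for Senp5, Sae1 and Pias3. Beside Ube2g2, 1 of 13 genes of endoplasmic reticulum ubiquitin conjugation had an unadjusted p under 0.05, the ligase gene Syvn1 at -0.14 (unadjusted p = 0.0355, limma adjusted p = 0.922), with Vcp at 0.11 and Marchf6 at 0.09. Beside Pfkl, none of 13 genes matched to the glycolysis list had one, with Aldoc at 0.09, Ldha at 0.05 and Pgam1 at 0.07. The entry Gpi1 of that list was matched by a synonym to another gene, Pigq, which is not a glycolysis gene. Beside Pde9a, 1 of 16 genes of cGMP turnover had one, the phosphodiesterase gene Pde1a at 0.11 (unadjusted p = 0.0412, limma adjusted p = 0.922), with Pde5a at 0.09 and Pde2a at 0.08.

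Beside Trpm2, none of 7 TRPM channel genes had an unadjusted p under 0.05, with Trpm6 and Trpm7 at -0.06 and Trpm1 at -0.05. None of 13 TRAPP complex genes had one, with Trappc8 at 0.08, Trappc5 at -0.10 and Trappc4 at 0.06. Around Pcnt, 1 of 20 genes of the pericentriolar material was higher and 1 lower. Nin, ninein, which anchors microtubules, had a log2 change of -0.11 with 5 of 5 Dp3Yah mice below every control (unadjusted p = 0.0183, limma adjusted p = 0.922). Plk4, the kinase of centriole duplication, was at 0.11 (unadjusted p = 0.0318, limma adjusted p = 0.922) and Tubgcp4 at -0.13. Around Cstb, 1 of 12 cathepsin and cystatin genes had an unadjusted p under 0.05, Ctss, cathepsin S, at 0.19 with 4 of 5 Dp3Yah mice above every control (unadjusted p = 0.00481, limma adjusted p = 0.922). Ctsk was at 0.10 and Cst7 at -0.12. Ctss is also among the 11 microglia markers given above, all of which were on the higher side.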

How the data were processed

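Hippocampal RNA of 5 Dp3Yah and 5 control mice was measured on 1 array each. The values deposited by the authors are log2 signals of 35556 probe sets, and the submitters' processing notes name RMA, limma and mm10, without versions. Which arrays were normalised together is not given in the sources used here, and array medians over all probe sets were 5.64 to 5.71. Each of 19939 genes was represented by its single-gene probe set with the highest mean. Probe sets with several genes (1621) or without a name here (12146) were left out. Symbols were updated through RefSeq tables of GRCm38.p6 for 19856 genes, and 83 kept the platform symbol. Positions and promoter windows are from RefSeq.

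Groups were compared with limma 3.58.1 (R 4.3.3, lmFit and eBayes, two-sided, no covariate), with Benjamini-Hochberg adjustment over all genes. The script was tested on simulated data. The rank test was rewritten over 25 pairs with 3 ranks removed on each side and thresholds of 0.025 and 0.975. Correlations had 100000 resamples, two-sided. The number of arrays limits the precision.

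The members and lists were chosen with earlier results of these data known. Values in every mouse are given for the 5 members with the smallest p in each direction and for others where the spread between mice or a marker bears on them, chosen after their values were seen. Up to 3 genes of each pathway list were named by smallest p. Gabpa was named for its motif. Alternatives were a replicate block, mean of probe sets, a filter at the median of all genes, quantile normalisation again, centring, trended and robust variance, array weights, leaving out each mouse, the rank test and a choroid plexus covariate.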

Additional observations from a re-analysis of the deposited data

Results flagged for a closer look

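Of 88 sets of 5 values (44 genes in 2 groups), 1 held a mouse far from the others. Col18a1 was at 6.43 in control replicate 1 and at 6.25 to 6.29 in the other 4 controls, and the gap was 0.77 of the whole range, above the critical value of 0.71. Chance alone marks about 5% of such sets. The choroid plexus marker mean of that mouse was 7.53, beside 7.69 in control replicate 5, where Col18a1 was at 6.29. Over the 5 mice with the higher choroid plexus means Col18a1 ran from 6.15 to 6.43, and over the other 5 from 6.17 to 6.28.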

How the results depend on the processing

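None of the 44 genes was called in the 18 alternatives of the limma test, in which the lowest adjusted p of a member ran from 0.711 to 0.999, and the 10 genes with the smallest p on either side (5 each) kept their direction in all 176 alternative values without passing. The median log2 change of the 44 genes was -0.03 to -0.02 when each mouse was left out in turn. Members with an unadjusted p under 0.05 numbered 2 with all mice, 1 after quantile normalisation again, 1 after centring, 0 among the 24 members above the median of all genes (Tspear and Tmprss3 are not among them), and 0 to 6 with each mouse left out. Genes called over the whole array numbered 3, with 6 under trended and robust variance, 5 under array weights and 1 to 4 with each mouse left out, 1 without Dp3Yah replicate 4 or control replicate 3, 4 or 5. Settings that leave out a mouse or filter by level hold fewer mice or genes, and the cause of the differing counts was not tested.

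The replicate numbers that both groups share were looked at as pairs. Same-numbered mice had correlations of their deviations of 0.044, -0.364, 0.065, 0.199 and 0.315, and 2 of 5 mice correlated best with their own number. The labels do not call them pairs, and whether same-numbered mice shared a litter or a day was not tested. With the replicate number as a block, 1 member, Tspear, had an unadjusted p under 0.05, and 3 genes and none of the 44 were called.

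The design of 5 against 5 arrays limits what can be seen: for 6 of the 44 genes a 1.2-fold change lay inside the interval, and 20 of the 44 had a mean signal at or below the median of all genes.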
